A study of Mus musculus with 2 samples.

Results

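The Sprouty and SPRED feedback inhibitors and the genes read as ERK output were followed in mouse lung cancer cells before and after *Runx3* restoration. The set holds 10 of the 23183 genes in the deposited values and was fixed by gene symbol: *Spry1*, *Spry2*, *Spry4*, *Spred1*, *Spred2*, *Spred3*, *Etv1*, *Etv4*, *Etv5* and *Phlda1*. All 10 were measured and passed the filter on low values, a mean over both libraries of 1 or more FPKM, the fragments per kilobase of transcript scaled to the mapped fragments of a library. KPR- cells are immortalized cells from lung cancers of mice carrying an oncogene allele silent until Cre acts, p53 flox/flox and Runx3 flox/FSF together with a Tomato reporter and a Flp-ERT2 transgene, in which CMV promoter-driven Cre, given by nasal infection with an adenovirus, had activated the oncogene and deleted p53 and the floxed Runx3 allele. The FSF cassette keeps the remaining Runx3 allele off until 4-hydroxytamoxifen (4-OHT) activates the Flp-ERT2 recombinase, which gives KPRrestored cells; p53 is deleted in both groups, and how many lines, tumours or clones a library holds is not stated. The sample titles place the KPR- library at 0 h, with genotype RUNX3 -/-, and the KPRrestored library at 16 h, with genotype RUNX3 -/+, and the labels list 1 μM 4-OHT for both. Each group is a single poly(A) RNA library. No difference between them therefore has a replicate check, and no p-value was computed. The effects of restoration, of 4-OHT and of hours in culture cannot be told apart with these 2 libraries.

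ERK is the last kinase of the RAS, RAF and MEK cascade that receptor tyrosine kinases drive. ERK signalling raises the transcription of its own inhibitors: Sprouty proteins act on the cascade below receptors, and SPRED proteins bring the RAS GTPase-activating protein neurofibromin to the membrane. The PEA3 transcription factors ETV1, ETV4 and ETV5 carry part of the transcriptional output, and in the lung Sprouty and PEA3 genes are known from branching of the airway under FGF signalling. *Phlda1* encodes a pleckstrin-homology-like protein and belongs to commonly used lists of ERK-induced transcripts.

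The KPR- library held about 21.8 M and the KPRrestored library about 22.6 M fragments, estimated from the steps of low FPKM values. A scaling between the libraries, if the deposited values carry one, would enter these estimates. With the longest transcript of each gene, between 199 and 2652 estimated fragments stood behind each of the 10 genes in KPR-. With the shortest coding transcript, *Etv1* had about 16 and *Etv5* about 55. *Runx3* stood at 0.348 FPKM (KPR-) and 0.349 FPKM (KPRrestored), from about 28 and 29 fragments, so its level does not check the labels, and each direction is that of the library labelled KPRrestored against the library labelled KPR-. Of the 8 epithelial markers examined all passed the filter in these lung cancer cells, whereas the alveolar markers *Sftpc*, *Sftpb*, *Sftpa1* and *Napsa* were listed at 0 in both libraries and *Foxa2* alone of 7 reached a mean of 1. Of 8 fibroblast, 5 endothelial and 6 immune markers, 1 of each list reached that level (*Col1a1*, *Kdr* and *Cd68*), and *Ptprc*, *Cdh5* and *Thy1* were at or near 0. From KPR- to KPRrestored the summed FPKM went from 6303 to 5653 for the epithelial, 11.2 to 16.5 for the alveolar, 12.7 to 5.35 for the fibroblast, 1.16 to 2.22 for the endothelial and 3.08 to 6.79 for the immune markers. Of the 8 epithelial markers 3 rose, among them *Cldn4* (107 to 202 FPKM), and the others fell, among them *Krt7* (1229 to 743 FPKM). *Foxa2*, *Col1a1*, *Kdr* and *Cd68* made up most of the other sums, so each of those follows mainly 1 gene. Against their sums, the alveolar *Nkx2-1* and *Sftpd* and the endothelial *Pecam1* stood lower in KPRrestored, and the fibroblast *Pdgfra* and *Dcn* stood higher. All of these had a mean under 1 FPKM. *Sftpd* (0.449 to 0.359 FPKM) rested on about 10 and 9 fragments, and *Dcn* (0.173 to 0.742 FPKM) on about 6 and 26. The part of these markers in the results was not tested.

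*Phlda1* and *Spry4* were higher in the library labelled KPRrestored, and the other 8 genes differed by less than the threshold. Differences are given as log2(FPKM + 0.005) of KPRrestored minus that of KPR-, and 0.5 either way was the threshold. On this scale 2 of the 10 genes (20%) were higher and 0 were lower, against 12.1% higher and 9.29% lower among the 11231 genes that passed the filter, so the set held calls at about the rate of all genes. The median difference of the 10 genes was 0.13, against 0.0086 over all 11231 genes, with 6 genes above 0 and 4 below it. The differences of 6 genes lay between the quartiles of all genes, -0.23 and 0.27. A 95% counting interval (exact Clopper-Pearson limits on the estimated fragments, covering counting error only) excluded 0 for 5 of the 10 genes, against 67.5% of the 10789 genes that passed it and had an interval. An interval away from 0 was thus less common in the set than the background, and nothing is read from it about the set.

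**Figure D1:**
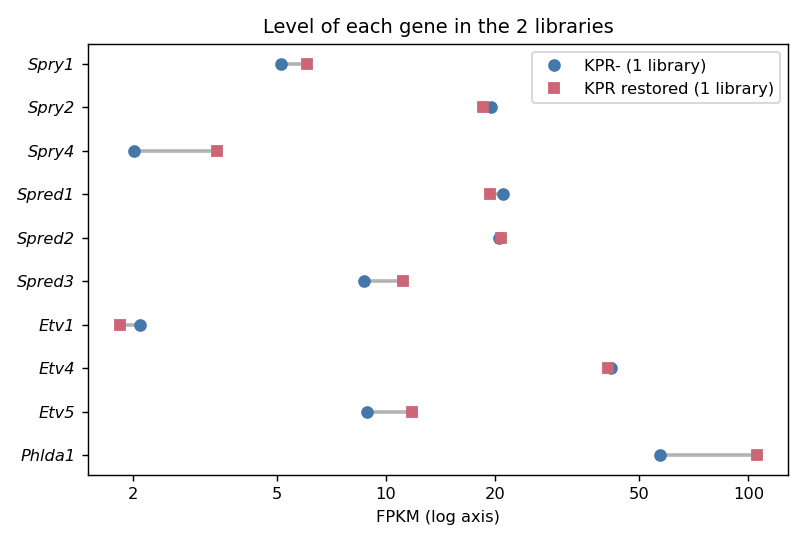
Level of each of the 10 genes in FPKM on a log axis, with circles for the KPR- library and squares for the KPRrestored library, 1 library each. *Phlda1* is the most abundant gene in both libraries, going from 57.2 to 105 FPKM, and *Spry4* and *Etv1* exchange the lowest place.

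The levels covered a wide range. *Phlda1* was the most abundant transcript per length in both libraries, followed by *Etv4* with 41.8 FPKM in KPR- and 40.9 FPKM in KPRrestored. *Spred1*, *Spred2* and *Spry2* followed with 20.98, 20.5 and 19.5 FPKM in KPR-, and in KPRrestored *Spred2* stood above *Spred1*. *Etv5* and *Spred3* lay near 10 FPKM, *Spry1* near 5 FPKM, and *Spry4* and *Etv1* were lowest with 2.01 and 2.10 FPKM in KPR-. With 1 library per group there is no spread against which neighbours in this order could be separated.

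*Phlda1* (chr10:111506286-111508645, plus strand, GRCm38) had the largest difference of the 10 genes. Its level was 57.2 FPKM in KPR- against 105 FPKM in KPRrestored, from about 2169 and 4112 fragments. On the log2 scale this was 0.88 (95% counting interval 0.81 to 0.96), or 1.84-fold. Of the 11231 genes, 3.93% had a difference at least as high. *Phlda1* alone carried most of the change in the summed level of the set, which went from 187 to 239 FPKM with it and from 130 to 134 FPKM over the other 9 genes. Exons of *Phlda1*, *Spry1* and *Spred3* overlap an annotated gene on the other strand, and whether strand was used in estimating FPKM is not given in the sources used here.

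Of the 3 Sprouty genes with a value above 0, *Spry4* alone passed the threshold. In GRCm38, *Spry1* lies at chr3:37639947-37644598 on the plus strand, and *Spry2* at chr14:105891947-105896819 and *Spry4* at chr18:38586247-38601415 on the minus strand. *Spry2*, the most abundant Sprouty gene, had 19.5 FPKM in KPR- and 18.5 FPKM in KPRrestored, which gave -0.08 on the log2 scale (counting interval -0.22 to 0.07). *Spry1* had 5.14 FPKM in KPR- and 6.05 FPKM in KPRrestored, which gave 0.24 on the log2 scale (counting interval -0.0094 to 0.48). Neither difference was separated from 0 by counting error. *Spry4* went from 2.01 to 3.41 FPKM, from about 199 and 349 fragments, which gave 0.76 on the log2 scale (counting interval 0.51 to 1.02). Thus the least abundant Sprouty gene was 1.69-fold higher, and its interval did not overlap those of *Spry1* and *Spry2*. Of the 11231 genes, 5.49% had a difference at least as high as that of *Spry4*. *Spry3*, the remaining gene of the family, was listed at 0 in both libraries. The summed Sprouty level was 26.7 FPKM in KPR- and 28.0 FPKM in KPRrestored, a log2 difference of 0.07. Within this nearly level sum the share of *Spry2* was 73.2% in KPR- and 66.2% in KPRrestored, that of *Spry4* was 7.55% and 12.2%, and that of *Spry1* was 19.3% and 21.6%.

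**Figure D2:**
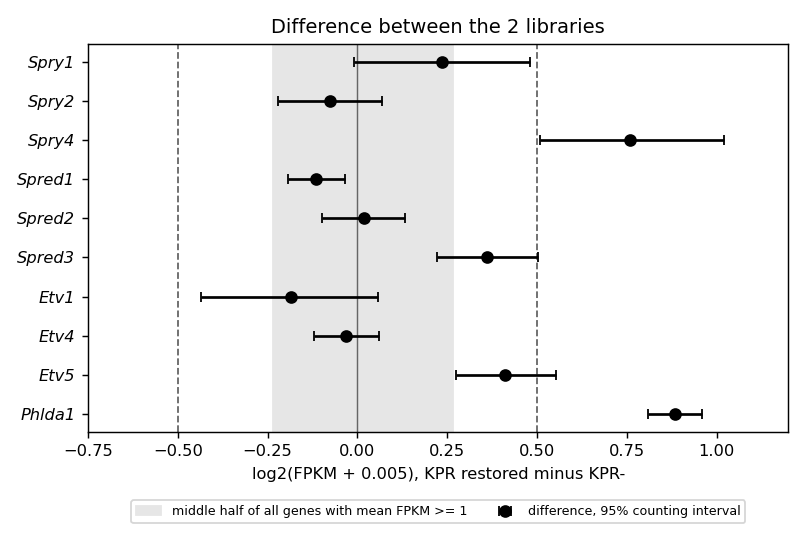
Difference of each gene, log2(FPKM + 0.005) in KPRrestored minus KPR-, with 95% counting intervals as bars, dashed lines at the threshold of 0.5 either way and the range between the quartiles of all genes that passed the filter shaded. *Phlda1* at 0.88 and *Spry4* at 0.76 lie past the threshold with their whole intervals, the lower limit of *Spry4* being 0.508. *Spred3* and *Etv5*, like *Spry1* and *Spred2*, lie between 0 and the threshold, and the intervals of *Spred3* and *Etv5* reach past it.

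None of the 3 SPRED genes passed the threshold. In GRCm38, *Spred1* lies at chr2:117121374-117182279 and *Spred2* at chr11:19924375-20024026, both on the plus strand, and *Spred3* at chr7:29158829-29170411 on the minus strand. *Spred1*, whose product is an inhibitor of RAS activation, had 20.98 FPKM in KPR- and 19.4 FPKM in KPRrestored, which gave -0.11 on the log2 scale (counting interval -0.19 to -0.04). *Spred2* had 20.5 and 20.7 FPKM, which gave 0.02 on the log2 scale (counting interval -0.10 to 0.13). *Spred3* had 8.69 FPKM in KPR- and 11.2 FPKM in KPRrestored, which gave 0.36 on the log2 scale (counting interval 0.22 to 0.50). *Spred3*, the least abundant of the family, was thus 1.28-fold higher but under the threshold, with an interval that did not overlap those of *Spred1* and *Spred2*. The summed SPRED level was 50.1 FPKM in KPR- and 51.3 FPKM in KPRrestored, a log2 difference of 0.03. The share of *Spred1* in this sum was 41.8% in KPR- and 37.8% in KPRrestored, and that of *Spred3* was 17.3% and 21.8%.

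The window upstream of the *Spred3* start is shown because it held a match to a binding motif of CIC (Capicua), the repressor that ERK signalling removes from PEA3 and Sprouty genes. The 250 bases lie at chr7:29168648-29168897 of GRCm38.p6 on the minus strand (sequence from RefSeq, written 5′ to 3′), and capitals mark TGAATGAA, beginning 10 bases before the RefSeq start. The window lies inside the span of *Spred3* given above.

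Spred3 upstream: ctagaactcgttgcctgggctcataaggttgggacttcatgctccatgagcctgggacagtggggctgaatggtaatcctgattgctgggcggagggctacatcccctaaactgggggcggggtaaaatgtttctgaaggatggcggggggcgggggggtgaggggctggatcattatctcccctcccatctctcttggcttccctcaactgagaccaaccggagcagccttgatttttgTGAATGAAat

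Promoter windows of 300 bases (250 before to 50 after a start) were found for 7 of the 10 genes, in 9 windows. *Phlda1*, *Etv4* and *Spry4* had no entry. On either strand, TGAATGAA or TGAATGGA was found in 1 of the 9 windows and in 2.47% of all 32851 windows. For CIC only these forms were searched, and a window of *Etv5* holds TGAATGGG, which was not among them. For RUNX only the form TGTGGT was searched. It was found in 1 of the 9 windows, a window of *Etv1*, against 16.8% of all windows. The ETS motif CCGGAA was found in 1, that of *Spry2*, where it begins 33 bases after the start, against 14.9% of all windows. The AP-1 motif TGANTCA and the CRE motif TGACGTCA were found in 0 of the 9 windows, against 7.81% and 1.79% of all windows. A match is a description of the letters and not evidence of binding. The share of G and C ran from 44.0% to 74.0% in the 9 windows, against a median of 52.7% over all windows. Only the *Etv1* windows, at 48.7% and 44.0%, lay below that median.

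None of the 3 PEA3 genes passed the threshold, and *Etv5* came nearest. In GRCm38, *Etv4* lies at chr11:101769742-101785371 and *Etv5* at chr16:22381309-22439719, both on the minus strand, and *Etv1* at chr12:38779380-38870484 on the plus strand. *Etv4*, the most abundant, had 41.8 FPKM in KPR- and 40.9 FPKM in KPRrestored, which gave -0.03 on the log2 scale (counting interval -0.12 to 0.06). *Etv5* had 8.84 FPKM in KPR- and 11.8 FPKM in KPRrestored, which gave 0.41 on the log2 scale (counting interval 0.27 to 0.55). The *Etv5* level was 1.33-fold that in KPR-, 15.9% of the 11231 genes had a difference at least as high, and its interval did not overlap that of *Etv4*. *Etv1* had 2.10 FPKM in KPR- and 1.84 FPKM in KPRrestored, which gave -0.19 on the log2 scale (counting interval -0.44 to 0.06). The summed PEA3 level was 52.8 FPKM in KPR- and 54.5 FPKM in KPRrestored, a log2 difference of 0.05. The share of *Etv4* in this sum was 79.3% in KPR- and 75.04% in KPRrestored, that of *Etv5* was 16.8% and 21.6%, and that of *Etv1* was 3.98% and 3.38%. Fragments for *Etv1*, *Etv5*, *Spred1* and *Spred2* are upper estimates, since each has shorter annotated coding transcripts. With the shortest coding transcript 3 of the 10 intervals excluded 0. Those of *Spred1* and *Etv5* then included 0, at -0.29 to 0.06 and -0.11 to 0.95, and that of *Etv5* overlapped the interval of *Etv4*. The *Spred2* interval, -0.24 to 0.28, overlapped that of *Spred3*. The *Etv1* interval was the widest, at -1.33 to 0.95.

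The window upstream of an *Etv1* start is shown because it is the only one of the 9 windows with the letters TGTGGT. Other forms of the RUNX motif were not searched. The 250 bases lie at chr12:38779832-38780081 of GRCm38.p6 on the plus strand (sequence from RefSeq, written 5′ to 3′), and capitals mark TGTGGT, which begins 192 bases before the RefSeq start. This window too lies inside the span of its gene given above. The *Etv1* difference was under the threshold, at -0.19, and was -0.04 once the running median of the differences along transcript length was subtracted.

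Etv1 upstream: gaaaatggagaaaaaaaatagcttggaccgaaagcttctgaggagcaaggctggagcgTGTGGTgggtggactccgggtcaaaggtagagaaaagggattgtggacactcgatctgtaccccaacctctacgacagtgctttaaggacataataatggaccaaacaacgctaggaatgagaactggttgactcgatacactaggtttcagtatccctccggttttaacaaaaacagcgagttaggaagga

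**Figure D3:**
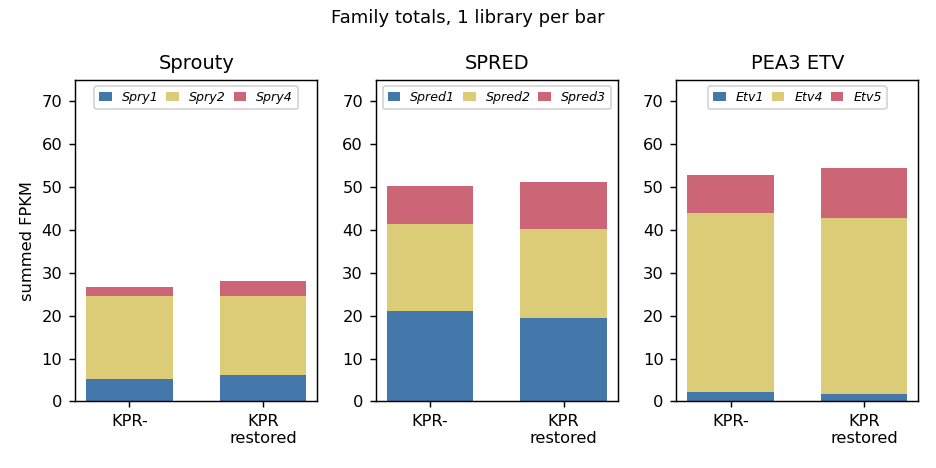
Summed FPKM of the Sprouty, SPRED and PEA3 ETV families in each library (1 library per bar, axis from 0), divided by gene. The family sums differ by 0.07, 0.03 and 0.05 on the log2 scale, while *Spry4*, *Spred3* and *Etv5* take larger shares in KPRrestored.

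The remaining genes around the pathway were described by lists of 96 genes in all, of which 87 passed the filter. These lists were chosen with earlier results of these data known, so a share set against all genes is only a description. Past the threshold were 12 higher genes (13.8%) and 7 lower genes (8.05%), near the 12.1% and 9.29% of all genes. The lists of the ERK phosphatases and of other ERK output genes held 11 of the 12 higher genes. Of the 5 phosphatases, which remove the activating phosphates from ERK, 3 were higher (60%, against 12.1% of all genes) and 0 were lower, with a median log2 difference of 0.79 against 0.0086 over all genes. *Dusp4* went from 27.2 to 65.9 FPKM, which gave 1.27 on the log2 scale (counting interval 1.19 to 1.36). *Dusp5* went from 22.6 to 39.7 FPKM and *Dusp6*, the most abundant of the list, from 53.3 to 92.4 FPKM, log2 differences of 0.81 and 0.79. *Dusp6* and *Phlda1* were thus both higher while *Spry2* and *Etv4* were nearly level.

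Among 14 other ERK output genes, 13 passed the filter, 8 of those were higher (61.5%, against 12.1% of all genes) and 1 was lower (7.69%, against 9.29%), and the median log2 difference was 0.70 against 0.0086 over all genes. *Areg*, which encodes the EGF receptor ligand amphiregulin, had 28.7 FPKM in KPR- against 105 FPKM in KPRrestored, 1.87 on the log2 scale. *Fos* went from 0.654 to 1.98 FPKM, from about 27 and 84 fragments, which gave 1.59 on the log2 scale (counting interval 0.96 to 2.28). *Ier3*, the most abundant of the list, had 296 FPKM in KPR- against 587 FPKM in KPRrestored, 0.98 on the log2 scale. *Ccnd1*, which encodes the G1 cyclin D1, went the other way, from 331 to 203 FPKM, a log2 difference of -0.71. No test of a list was made, and these shares carry the limit on how the lists were chosen.

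The genes of the cascade itself were mostly under the threshold. Of 17 RAS, RAF, MEK and ERK genes, 16 passed the filter, 0 were higher and 1 was lower, with a median of 0.03. The exception was *Ksr1*, a scaffold of the cascade, which had 5.502 FPKM in KPR- against 3.03 FPKM in KPRrestored, -0.86 on the log2 scale. *Pebp1*, an inhibitor of RAF and the most abundant of the list, had 327 FPKM in KPR- and 332 FPKM in KPRrestored.

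Upstream of the cascade, 8 of 14 receptor tyrosine kinases passed the filter, and 3 of these were lower (37.5%, against 9.29% of all genes) and 0 were higher, with a median of -0.20. *Met* went from 82.8 to 41.5 FPKM and *Axl*, the most abundant, from 273 to 158 FPKM, log2 differences of -0.996 and -0.79. The third was *Igf1r*, from 18.3 to 12.2 FPKM, a log2 difference of -0.58 that was under the threshold, at -0.35, once the running median along transcript length was subtracted. Of the 15 adaptors, exchange factors and RAS GTPase-activating proteins, 0 were higher and 0 were lower by 0.5, with a median of -0.12. The adaptor gene *Shc1*, the most abundant of this list, had 41.4 FPKM in KPR- and 51.5 FPKM in KPRrestored, a log2 difference of 0.32. *Nf1*, which encodes the neurofibromin that SPRED proteins recruit, had 6.54 and 5.81 FPKM, which gave -0.17 on the log2 scale (counting interval -0.27 to -0.07). That interval covers counting error only. The *Nf1* value with the running median along transcript length subtracted is not given here, so no fall of *Nf1* is read from it.

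**Figure D4:**
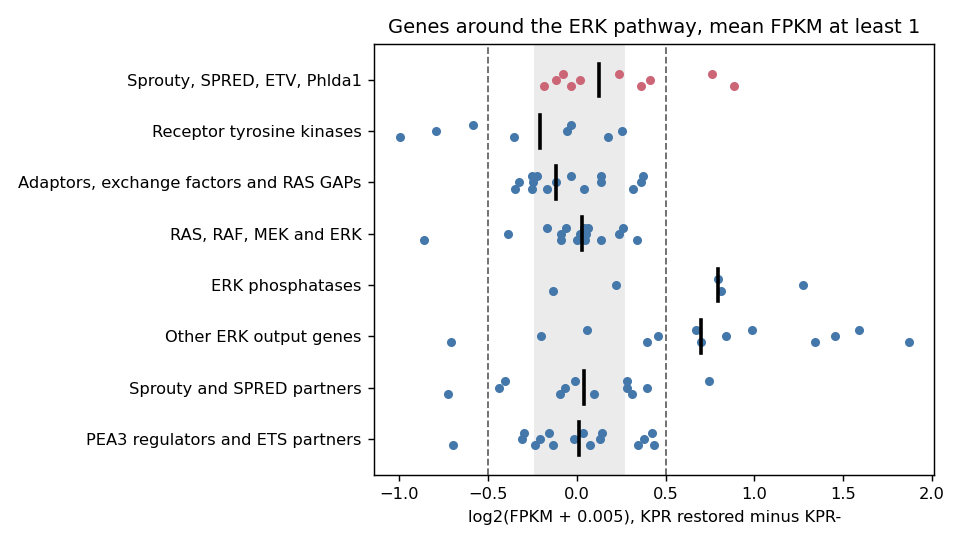
Difference of each gene with a mean FPKM of at least 1, log2(FPKM + 0.005) in KPRrestored minus KPR-, in the set of 10 genes and in 7 lists around the ERK pathway; black bars are list medians, dashed lines the threshold of 0.5 and the shaded range the quartiles of all genes. The medians of the ERK phosphatases and of other ERK output genes lie at 0.79 and 0.70, and those of the other lists between -0.20 and 0.13.

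Among 12 genes whose products act on Sprouty and SPRED proteins or bind them, 1 was higher and 1 was lower, with a median of 0.04. *Siah2*, which encodes a ubiquitin ligase of Sprouty proteins, had 6.04 FPKM in KPR- against 10.1 FPKM in KPRrestored, 0.74 on the log2 scale. *Cav1*, which encodes caveolin-1, had 184 FPKM in KPR- against 111 FPKM in KPRrestored, -0.72 on the log2 scale. *Nedd4*, another ubiquitin ligase of Sprouty proteins and the most abundant of the list, had 248 and 183 FPKM, a log2 difference of -0.44. Of 16 regulators of PEA3 proteins and other ETS genes, 0 were higher and 1 was lower, with a median of 0.01. The lower gene was *Elk4*, from 6.75 to 4.17 FPKM, a log2 difference of -0.70. *Ets2*, the most abundant, had 50.1 and 67.1 FPKM, a log2 difference of 0.42. *Cic*, which encodes the repressor of PEA3 and Sprouty genes, had 27.3 and 28.7 FPKM, a log2 difference of 0.07. The PHLDA relatives *Phlda2* and *Phlda3* had differences of -0.45 and 0.17, both under the threshold, beside 0.88 for *Phlda1*.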

How the data were processed

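RNA of 1 KPR- and 1 KPRrestored library was examined. After trimming, the authors aligned paired-end reads by TopHat (build mm10 in the submitters' processing notes), estimated FPKM by Cufflinks and deposited 1 FPKM value per gene and library. The authors also name a geometric normalization with EdgeR, and whether the deposited values carry it is not stated. Versions and annotation are not given in the sources used here. The 10 genes and all lists were chosen with earlier results of these data known.

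Differences were computed as log2(FPKM + 0.005) with a threshold of 0.5, which understates changes of genes near the pseudocount. Depth was estimated by placing low FPKM values of 1745 and 1772 genes with a single GENCODE M21 transcript on whole fragments. In all, 80.2% and 81.9% of values between 0.5 and 5.5 fragments came out no more than 0.1 from a whole number (20% by chance). Fragments per gene used the longest transcript with a RefSeq counterpart, and the 95% limits (Clopper-Pearson) include no error but that of counting. The depth fit and the limits were tested on simulated data. Beside the 10 genes, the genes named were *Runx3*, the family relatives and, in each list, the 2 largest rises and falls past the threshold and the most abundant gene. *Igf1r*, *Nf1*, *Cic* and the named markers were chosen after their values were seen. Promoter windows are from RefSeq on GRCm38.p6, and protein sequences were not used here. Alternatives were other pseudocounts, scalings, thresholds and filters. Computations ran in Python 3.11.15 (scipy 1.17.1, numpy 2.4.6, pandas 2.3.3), with figures from matplotlib 3.10.9.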

Additional observations from a re-analysis of the deposited data

How the results depend on the processing

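The direction of *Phlda1* and *Spry4* and their place past 0.5 were the same under both other pseudocounts, all 3 scalings and removal of the transcript length trend, an alternative chosen after seeing the data. At a threshold of 1, 0 of the 10 genes were higher, and with a mean FPKM of at least 5 required, which leaves out *Spry4*, 1 was. With the length trend removed *Phlda1* was at 0.81 and *Spred1* changed sign, to 0.0045, and *Etv1* moved the most of the 10 genes, from -0.19 to -0.04, which left *Spry2* lowest at -0.15. *Spred2* did so with the upper quartile scaling (-0.02) and with the length trend removed (-0.03).

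At a threshold of 1, the receptors had 0 lower genes, the cascade 0 lower, the phosphatases 1 higher, the other output genes 4 higher and 0 lower, the partners 0 either way and the ETS list 0 lower. Without a filter the receptors had 5 lower genes and the other output genes 9 higher. The added receptors were *Fgfr2* (about 38 and 10 fragments) and *Pdgfrb* (about 3 and 2), both under 1 FPKM. With a mean of at least 5 the cascade had 0 lower genes and the other output genes 6 higher among 11. With the length trend removed, 2 receptors were lower in place of 3 (*Igf1r* was at -0.35), 1 relative was lower, 1 adaptor, 2 partners and 1 ETS list gene were higher, and the other list counts were the same. Over all genes, a threshold of 1 left 325 higher and 155 lower genes, no filter gave 3193 and 3002, and a mean of at least 5 gave 872 and 641. With 1 library per group, leaving out a library was not possible.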

Other observations

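Parts of 3 of the 10 genes overlap exons of a gene on the other strand. *Phlda1* shares 727 exon bases with *Gm28592* and *Spry1* shares 710 with *Gm42922*, and neither neighbour has a value here. *Spred3* shares 202 exon bases with *Ggn*, which had 1.196 FPKM in KPR- and 0.781 FPKM in KPRrestored, a log2 difference of -0.61, opposite in sign to that of *Spred3*. The library kit keeps strand, but whether strand was used in estimating FPKM is not given in the sources used here.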
